A study of Mus musculus with 24 samples.

Results

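LINE-1 (L1) repeat families were followed through 3 stages of mouse preimplantation development, in embryos whose MERVL transcripts had been depleted and in their controls. An L1 family here is every row of the RNA count tables that carries the repeat class name LINE/L1, which gave 138 of the 1035 repeat families and of the 56326 rows in all, the remaining 55291 being genes. The 25 families named L1Md, for Mus domesticus, form the young set, and the other 113 families form the older set. Both sets are defined by name alone.

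Zygotes of 8-week-old B6D2F1 (BDF1) mice, given as background strain BDF2 in the sample labels, received antisense oligonucleotides (ASOs) by microinjection into the male pronucleus. MERVL is an endogenous retrovirus that is transcribed at high level in 2-cell embryos, and the MERVL-KD embryos received a mixture of ASOs against it, whereas the control embryos received a scrambled ASO. Both groups therefore came through superovulation, injection and culture in the same medium, and the treatment differed in the oligonucleotide. Pools of zona-free embryos were taken at the 2-cell stage (1.5 days post-coitum) and at the 4-cell and 8-cell stages (both given as 2.5 days post-coitum). The paper chose them by cleavage stage under the microscope. It reported that far more MERVL-KD than control embryos were still at the 2-cell to 4-cell stage at 2.5 days post-coitum. Delay and selection of embryos therefore cannot be told apart from other effects of the ASOs. Each of the 6 groups held 2 total RNA-seq libraries, 12 in all, made with random priming, so that unpolyadenylated and intronic RNA was counted too. The 12 chromatin accessibility libraries of the same study were not analysed here. The agents that set the groups apart are printed here 5′ to 3′ as they were ordered, each with 20 bases and carrying phosphorothioate linkages and methoxyethyl-modified ends. They are in lower case throughout, because no single stretch of them is compared.
MERVL-ASO1: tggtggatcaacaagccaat
MERVL-ASO2: catttgtctgtttaccacga
MERVL-ASO3: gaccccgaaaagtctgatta
Scramble-ASO: agcgcgggtattgaaccagg

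L1 elements are autonomous retrotransposons. A full-length copy carries an internal promoter in its 5′ untranslated region and encodes an RNA-binding protein and a protein with endonuclease and reverse transcriptase activity, with which it copies its own RNA back into the genome. In the mouse, the A, Tf and Gf subfamilies hold the copies that can still move, F and V are older mouse subfamilies, and Lx and L1M names mark remnants that are older still and mostly truncated. L1 RNA is known to be abundant around zygotic genome activation, when many repeats that are silent later are transcribed. Reads were kept by the authors only where they aligned to a single place in the genome. The near-identical copies of the youngest subfamilies are thus seen through the parts in which they differ, and reads from an L1 fragment inside an intron or a 3′ untranslated region of another gene cannot be told apart from reads that began at an L1 promoter.

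The 12 libraries held between 28167085 and 41482526 counts, of which 315383 to 576634 fell on L1 families, and between 124 and 131 of the 138 families had a count in each library. No family was at 0 throughout, and 26 were at 0 in at least 1 library. As a check of the labels, MERVL-int, the internal part of MERVL, took 6.33% and 6.57% of the counts of control 2-cell embryos but 0.157% and 0.143% of those of MERVL-KD 2-cell embryos. Depletion lasted, with log2 fold changes of −5.72, −5.53 and −5.40 in 2-cell, 4-cell and 8-cell embryos (edgeR's quasi-likelihood test, adjusted p = 1.28e-16, 1.04e-04 and 2.42e-12). All repeat families together took 23.6% and 25.2% of the counts of control 2-cell libraries and 16.5% and 15.8% of those of MERVL-KD 2-cell libraries. Since the make-up of the libraries differed, differences below are on the scale set by the trimmed mean of M values (TMM). Under it the median of all features moved little. The part of MERVL-int in the need for scaling was not tested. Scaling by library size instead added a shift of about 0.29 to every 2-cell log2 fold change (the median of all features was 0.31 in place of 0.02).

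L1 RNA made up a larger part of the MERVL-KD 2-cell libraries than of the control 2-cell libraries. The L1 share of all counts was 1.14% and 1.02% under the scrambled ASO but 1.62% and 1.43% under the MERVL ASOs, without overlap. At the 4-cell stage it was 1.52% and 1.38% in control embryos beside 1.36% and 1.42% after depletion, and the groups overlapped. The 8-cell control libraries held 1.10% and 0.947% and their MERVL-KD counterparts 1.14% and 1.11%, so that the KD libraries were just above both controls. With 2 libraries against 2, an exact permutation test cannot reach the threshold, and none is given for these shares. They are relative to all RNA in the pool, so more L1 RNA and less of other RNA cannot be told apart, nor can fewer cells of a type and less RNA per cell. Nothing in the labels says that the 2 libraries of a group came from separate experiments, and p-values here measure the spread between these libraries.

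The young families took a larger part of the L1 RNA in MERVL-KD than in control 2-cell embryos. L1Md families took 45.3% and 47.0% of the L1 counts in control 2-cell embryos and 52.5% and 50.5% in MERVL-KD 2-cell embryos. This share does not depend on the scaling of the libraries, and its groups did not overlap. The A, Tf and Gf families alone, which hold the mobile copies, took 23.4% and 25.3% in control 2-cell embryos. In MERVL-KD 2-cell embryos they took 25.8% and 25.2%, so for them the groups overlapped. In 4-cell embryos the L1Md share was 46.6% and 45.8% for control libraries beside 49.8% and 47.6% after depletion. The order was the opposite in 8-cell embryos, with 51.6% and 51.2% for control libraries beside 48.4% and 48.6% after depletion. A single family, L1MdA_VI, took 7.15% to 15.7% of the L1 counts of a library. Without it the L1Md share of control libraries was 40.4% and 41.0% in 2-cell, 41.7% and 41.6% in 4-cell and 43.8% and 42.4% in 8-cell embryos. The matching MERVL-KD values were 48.7% and 46.3%, 42.8% and 41.8%, and 39.5% and 39.0%.

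**Figure D1:**
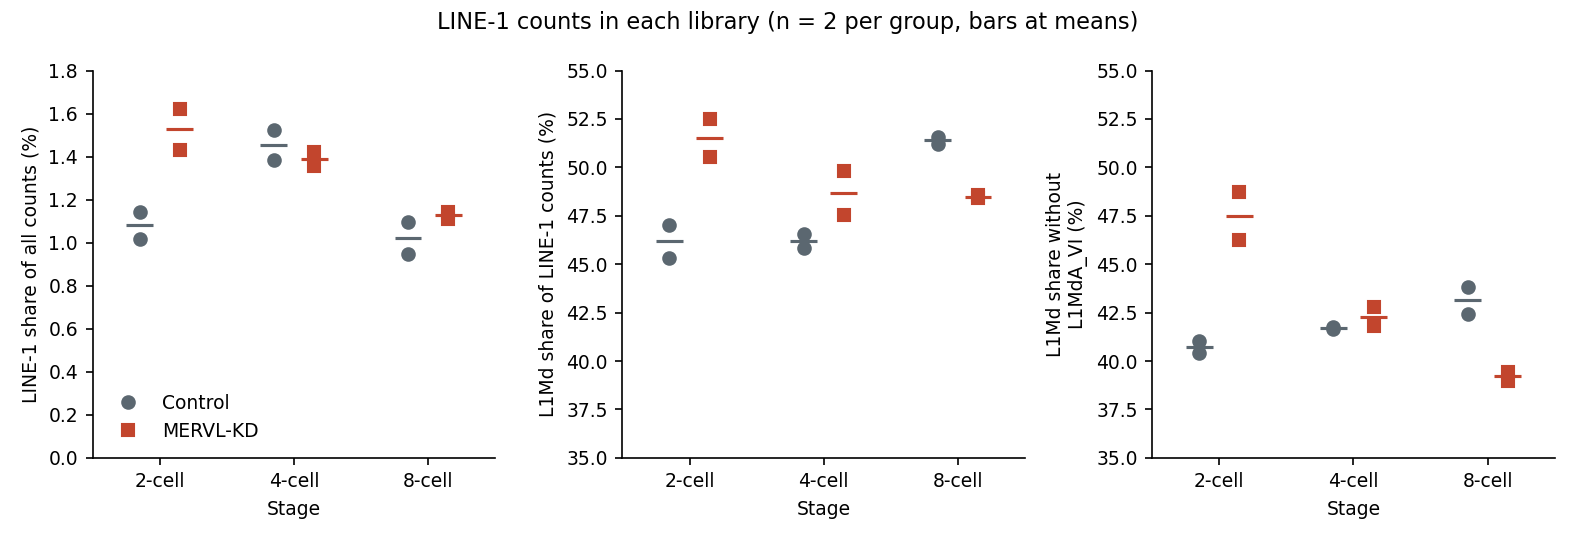
Share of all counts in L1 families (left), share of L1 counts in L1Md families (middle) and the same without L1MdA_VI (right), in percent, for the 2 control libraries (grey circles) and 2 MERVL-KD libraries (red squares) at each stage, with bars at the group means. The left axis starts at 0 and the other axes at 35%. Shares in the left panel are before TMM scaling. At the 2-cell stage both MERVL-KD libraries lie above both control libraries in all 3 panels, and at the 8-cell stage they lie below them in the middle and right panels.

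At the 2-cell stage, 24 L1 families were higher and 1 was lower in MERVL-KD than in control embryos, of 113 that passed the filter on low counts (adjusted p < 0.05, edgeR's quasi-likelihood test over the 21347 features tested). Among all features, 6.74% were called higher and 7.23% lower by the same rule. The calls lay mostly in the young set. All 25 L1Md families were tested, and 17 were higher, none was lower and 8 did not pass, with a median log2 fold change of 0.49, whereas 7 of the 88 older families tested were higher, 1 was lower and 80 did not pass, with a median of 0.12. Over all features the median was 0.02. Scaled by library size, 58 L1 families were higher and 0 were lower, 24 of them L1Md. That scaling moved the median of all features to 0.31, and the shares of all features given here do not apply to it. The share of all features called under it is not given, so these counts have no baseline. With a 2-fold change asked as well, 0 L1Md and 4 older families were higher and none was lower, beside 4.26% higher and 2.22% lower among all features.

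L1MdF_I, of the F subfamily, had the largest difference of the young set. It stood at 193 and 155 normalised CPM (counts scaled to a library of fixed size after TMM) in the control libraries and at 371 and 298 in the MERVL-KD libraries, a 1.92-fold difference (log2 0.94, SE 0.12, adjusted p = 0.0001). L1MdF_III, 1 of the 5 families with the most counts, was at 372 and 326 CPM in control but at 661 and 542 CPM in MERVL-KD embryos (log2 0.79, SE 0.10, adjusted p = 8.3e-05). The third of the F families by size, L1MdF_IV, was at 269 and 261 CPM against 427 and 368 CPM (log2 0.58). In each of these families the lower MERVL-KD library was above the higher control library. L1MdF_II and L1MdF_V were also higher, by 0.50 and 0.49 on the log2 scale, so all 5 F families passed.

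The A subfamily, which holds some of the mobile copies, showed the same direction in 6 of its 7 families. L1MdA_V rose from 50.1 and 49.6 CPM in control to 95.2 and 80.2 CPM in MERVL-KD embryos (log2 0.81, SE 0.11, adjusted p = 1.23e-04). L1MdA_VII was at 172 and 138 CPM against 272 and 233 CPM (log2 0.71), and L1MdA_III at 356 and 309 CPM against 580 and 458 CPM (log2 0.64). L1MdA_I, L1MdA_IV and L1MdA_II followed with log2 differences of 0.62, 0.51 and 0.45. The exception was L1MdA_VI, the L1 family with the most counts. It was at 1018 and 1168 CPM in control and at 1081 and 1032 CPM in MERVL-KD embryos, with overlapping groups (log2 −0.05, SE 0.08, adjusted p = 0.766).

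The other mobile subfamilies did not move as a block. L1MdGf_I was at 102 and 76.2 CPM in control and at 171 and 140 CPM in MERVL-KD embryos (log2 0.80, SE 0.13, adjusted p = 0.00109), while L1MdGf_II had a log2 difference of 0.28 and did not pass (adjusted p = 0.127). None of the 3 Tf families passed. L1MdTf_III was at 257 and 231 CPM against 289 and 267 CPM (log2 0.19, SE 0.09), and L1MdTf_II at 126 and 152 CPM against 158 and 142 CPM (log2 0.11, SE 0.10). The 2 MERVL-KD libraries disagreed on L1MdTf_I, at 154 and 85.5 CPM beside 117 and 144 CPM in control (log2 −0.12, SE 0.37), so its difference is poorly known.

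Of the remaining young families, L1MdMus_I, L1MdMus_II, L1MdN_I, L1MdV_I and L1MdV_III were higher, with log2 differences of 0.44, 0.33, 0.54, 0.56 and 0.44. L1MdFanc_I, L1MdFanc_II and L1MdV_II did not pass, with values of −0.003, 0.15 and 0.17. The families that passed thus came from 6 of the 8 L1Md subfamily names, and Tf and Fanc were the names with none.

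**Figure D2:**
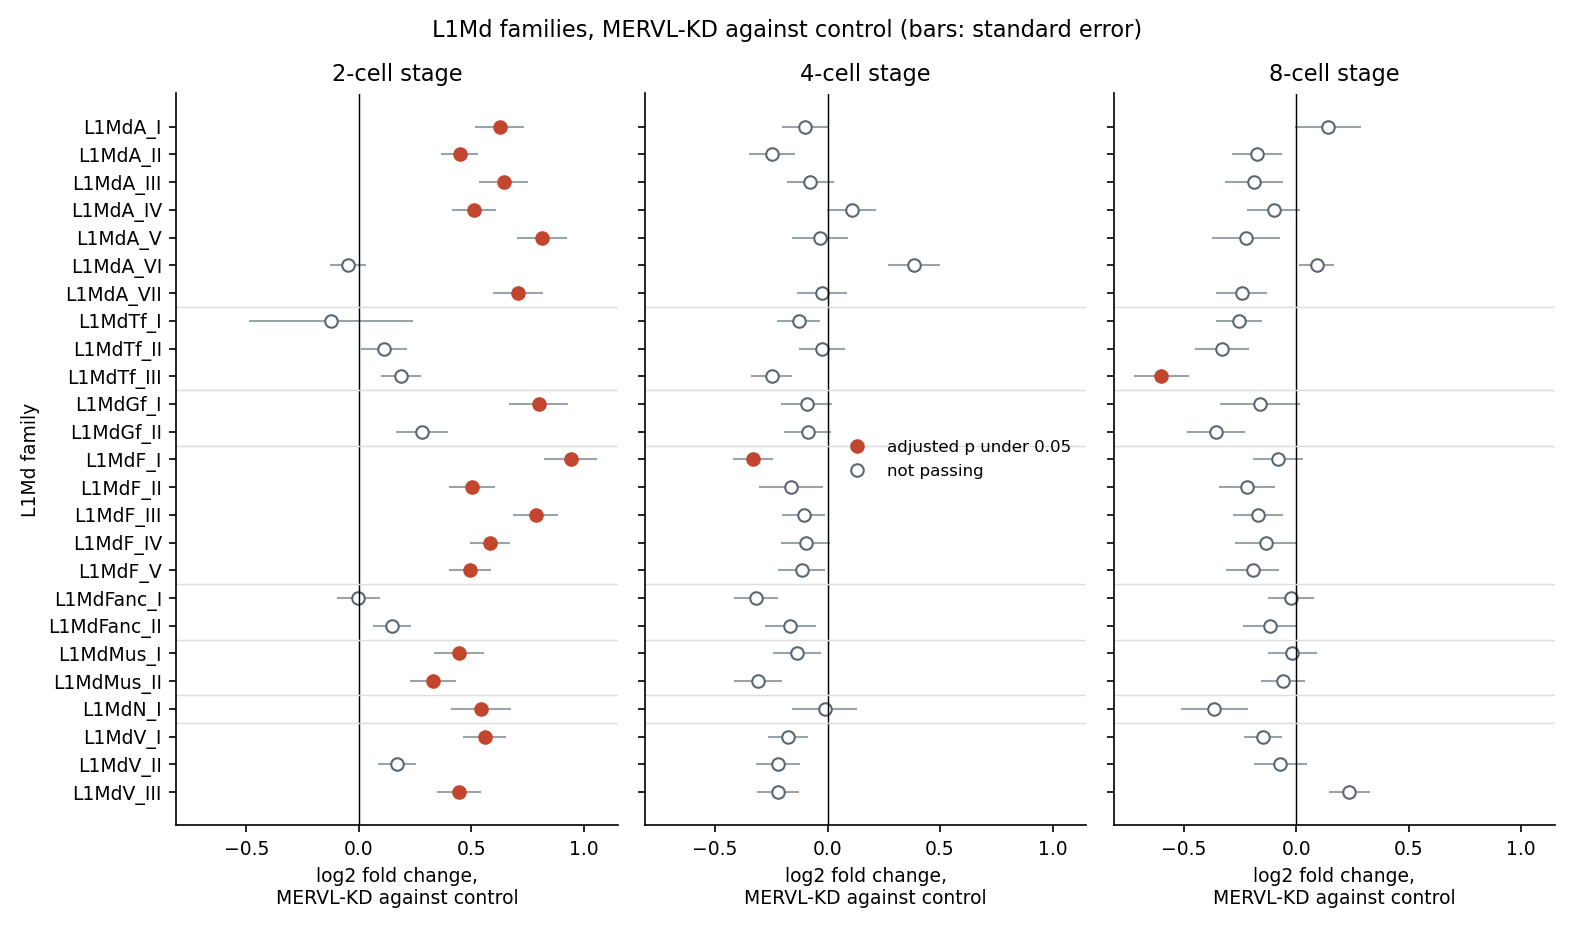
log2 fold change of MERVL-KD against control for the 25 L1Md families (rows, grouped by subfamily name) at the 2-cell, 4-cell and 8-cell stages, with the standard error as a bar. Filled red points passed an adjusted p of 0.05 and open points did not. 17 families pass to the right of 0 at the 2-cell stage, and 1 passes to the left of 0 at each later stage.

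Among the older families, those that passed were few and spread over several names. L1Lx_IV, of a group whose name joins L1 and Lx, was at 288 and 266 CPM in control and at 418 and 371 CPM in MERVL-KD embryos (log2 0.51, SE 0.09, adjusted p = 9.1e-04). L1VL1 was at 15.6 and 13.8 CPM against 27.5 and 24.3 CPM (log2 0.82, adjusted p = 0.00183), and L1MD, an L1M family despite its spelling, at 8.93 and 10.2 CPM against 21.2 and 17.2 CPM (log2 1.00, adjusted p = 0.00123). The families past 2-fold all had few counts. Besides L1MD these were L1MC4, L1_Mus3 and L1M2a, which lay between 0.655 and 1.97 CPM in control libraries, apart from 2.07 CPM for L1MC4 in replicate 1. Their log2 differences reached 1.79 in L1M2a, which was at 0.679 and 0.655 CPM against 2.54 and 2.09 CPM. Leaving out 1 library ended the calls of L1VL1, L1MC4, L1_Mus3, L1M2a and Lx3C in all 4 fits, and those of L1Lx_IV and L1MD in 3 of the 4. These older families were chosen for naming after their values were seen.

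The Lx families, which hold 29.4% to 35.9% of the L1 counts of a library, had few calls, and the difference between them and the young set was not tested. Of 21 tested, Lx3C was higher (log2 0.36, adjusted p = 0.0363), Lx4B was lower and 19 did not pass, with a median of −0.01. Lx4B was at 86.9 and 81.5 CPM in control and at 67.5 and 66.0 CPM in MERVL-KD embryos (log2 −0.33, SE 0.10, adjusted p = 0.0348), a difference that shrank to −0.047 and lost its call under scaling by library size. Lx7, the older family with the most counts, was at 515 and 456 CPM against 474 and 451 CPM, which nearly coincided. Among repeats of other ancient classes, 0 of 4 L2 families and 0 of 4 MIR families passed at the 2-cell stage, with medians of 0.16 and 0.01. Of 132 DNA transposon families 2 were higher and 1 was lower, with a median of 0.07, beside 6.74% and 7.23% of all features.

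The calls at the 2-cell stage rested on few libraries. Leaving out 1 library at a time left between 4 and 14 L1Md families past the threshold. There were 7 without control replicate 1, 4 without control replicate 2, 4 without MERVL-KD replicate 1 (3 higher and 1 lower) and 14 without MERVL-KD replicate 2, the lone library then being assumed to vary as the other groups did. L1MdF_I, L1MdF_III and L1MdA_V passed in each of these 4 fits. The median over L1Md families stayed between 0.30 and 0.53 in them, while that over older families lay between −0.038 and 0.069.

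Other RNA moved between the same libraries. Of 6 markers of the 2-cell stage, 3 were lower and none was higher at the 2-cell stage, among them Zscan4c (log2 −1.47, adjusted p = 1.93e-05), which marks the 2-cell state, and Usp17le (log2 −1.07). Sums in this paragraph are in CPM before TMM scaling, where the median log2 difference of all features was 0.31 at the 2-cell stage. The summed level of the 2-cell markers was 368 to 470 CPM in control and 293 to 346 CPM in MERVL-KD embryos. Of 6 oocyte RNAs, 2 were lower and none was higher, with sums of 915 to 1024 CPM against 774 to 870 CPM. Of 6 morula and trophectoderm markers 1 was higher, Id2, with a log2 difference of 1.85, while their sums were 65.6 to 71.4 CPM against 92.5 to 106 CPM. Markers of cumulus cells, which surround the oocyte, summed to between 0.506 and 4.05 CPM over the 12 libraries. The part of stage or maternal RNA in the L1 differences was not tested.

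**Figure D3:**
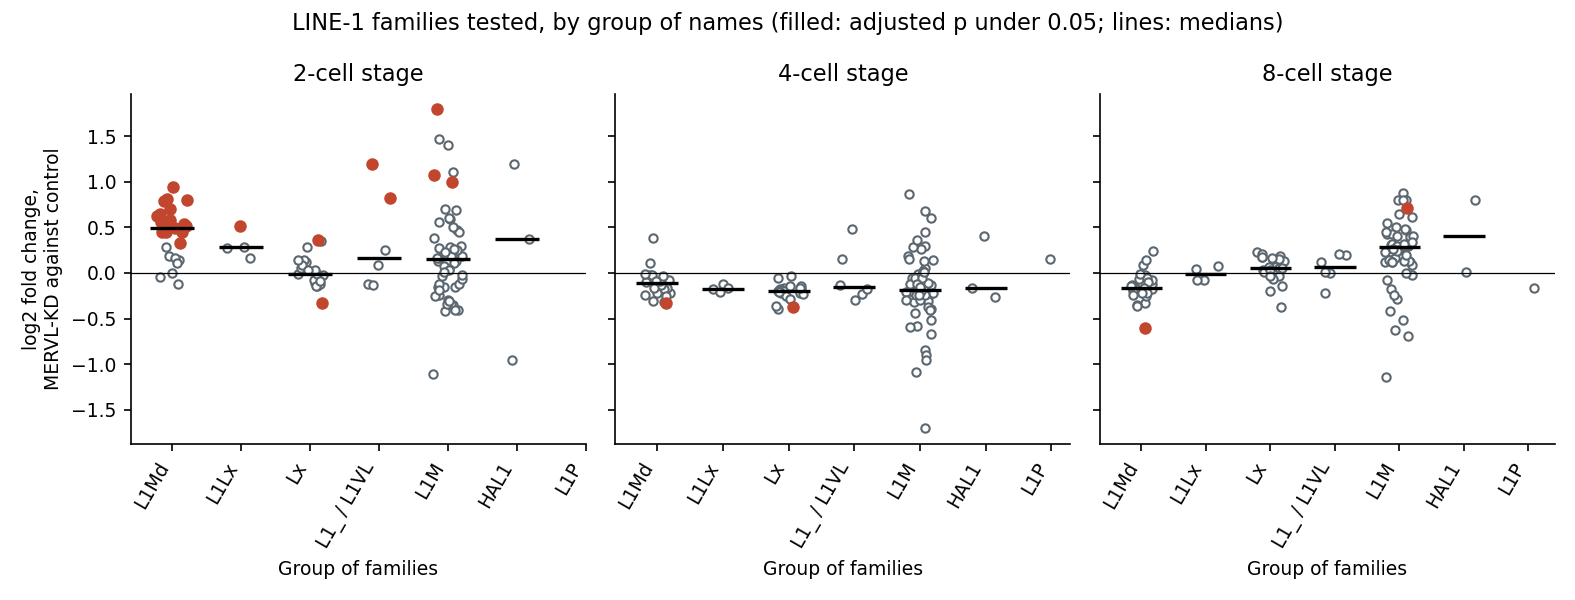
log2 fold change of MERVL-KD against control for each L1 family tested, by group of names, at the 3 stages. Filled red points passed an adjusted p of 0.05, open points did not, and black lines mark medians where a group has more than 1 family. At the 2-cell stage the L1Md median is 0.49 and the Lx median −0.01, and at the 8-cell stage the L1Md median is −0.16 and the L1M median 0.28.

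At the 4-cell stage the L1 families of MERVL-KD and control embryos were close. None of the 116 families tested was higher and 2 were lower, beside 4.83% higher and 5.75% lower among all features. Those were L1MdF_I, at 275 and 264 CPM in control and 208 and 220 CPM in MERVL-KD embryos (log2 −0.33, SE 0.09, adjusted p = 0.0377), and Lx2B2, at 227 and 207 CPM against 153 and 183 CPM (log2 −0.37, adjusted p = 0.0491). Both are just inside the threshold, and each was lost under several alternatives, with 1 higher and 0 lower families when scaled by library size. No family was past 2-fold, beside 2.58% of all features higher and 1.87% lower. The young and older medians were alike, at −0.12 and −0.18, against 0.01 over all features. Of the 25 L1Md values, 23 were below 0 and 2 above. L1MdA_VI was at 1299 and 1009 CPM in control and at 1591 and 1420 CPM in MERVL-KD embryos, without overlap but not past the threshold (log2 0.38, adjusted p = 0.0599). Leaving out MERVL-KD replicate 2 gave 8 lower families, leaving out control replicate 1 gave 1 higher family, and the other omissions gave 0. At this stage the epithelial keratin genes Krt8 and Krt18 and the transcriptional regulator Id2, all among the morula and trophectoderm markers, were higher (log2 2.45, 1.41 and 1.94), beside a median of 0.96 over the 6 markers of that list. Of the 6 markers of the 2-cell stage, 1 was lower, Zfp352 (log2 −1.04), and none was higher, while the median of the list was 0.58.

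At the 8-cell stage 1 of 113 families was higher and 1 was lower, beside 1.62% and 3.51% of all features. L1MdTf_III was at 255 and 192 CPM in control and at 142 and 153 CPM in MERVL-KD embryos (log2 −0.60, SE 0.12, adjusted p = 0.018), without overlap, and it was lost only when control replicate 1 was left out. L1MB2, an old family with few counts, was at 9.67 and 9.52 CPM in control and at 17.3 and 14.2 CPM in MERVL-KD embryos (log2 0.71, adjusted p = 0.0483), and leaving out any of the 4 libraries ended its call. Scaled by library size, 7 families were higher and 1 was lower, and the share of all features called under that scaling is not given. On the TMM scale none was past 2-fold, beside 0.632% of all features higher and 1.07% lower. The remaining Tf families had values of −0.25 and −0.33 and did not pass. Apart from these 2 families none passed, and the medians of the young and older families lay on opposite sides of 0. The L1Md median was −0.16, with 22 of 25 values below 0, and the older median was 0.15, with 67 of 88 values above 0, against 0.01 over all features. Scaled by library size, which moved the median of all features to 0.14, the L1Md median was −0.034 and the older median 0.28. Without control replicate 1 the L1Md median was 0.00089. The older families lay on the side of the DNA transposon families at both later stages, whose medians were −0.29 in 4-cell and 0.23 in 8-cell embryos, with 1 higher and 1 lower of 138 and 3 higher of 131.

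The values were also set against the length deposited for each family, read here as the average length of its annotated copies. The median average length was 1734 bp for L1Md families and 742.5 bp for older families. At the 8-cell stage longer families had lower log2 fold changes, with Spearman's rho of −0.59 over the 25 L1Md families and −0.43 over the 88 older ones. At the 2-cell stage the corresponding values were 0.06 and 0.05, and at the 4-cell stage 0.30 and −0.05. Families share libraries and overlap in sequence, so these are descriptions and carry no test. RNA was sheared by heating in every library, and the part of RNA length or integrity in these values was not tested.

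**Figure D4:**
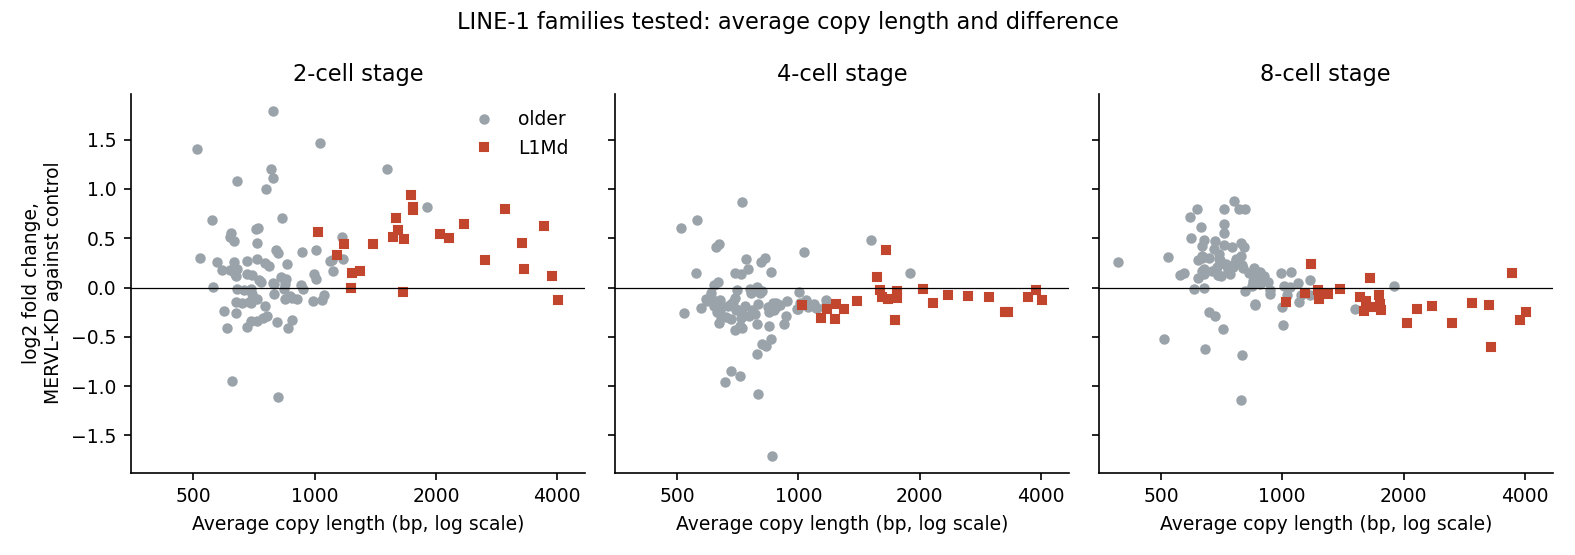
log2 fold change of MERVL-KD against control (vertical) against family length in base pairs (horizontal, log scale) at the 3 stages. Older families are grey circles and L1Md families red squares. The length is the deposited value, read as the average length of a family's annotated copies. At the 8-cell stage the points fall from left to right, with rho of −0.43 within the older and −0.59 within the L1Md families.

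Whether the effect of MERVL-KD differed between stages was tested as a difference of effects in a fit of all 12 libraries. From the 2-cell to the 4-cell stage, 8 of 123 L1 families had a lower effect and none a higher one, beside 1.65% lower and 2.47% higher among all features. Of these 8, 7 were L1Md families and the other was L1Lx_IV. The effect on L1MdF_I was lower by 1.19 on the log2 scale, the sole difference past 2-fold (SE 0.17, adjusted p = 3.66e-04). L1MdF_III, L1MdA_V, L1MdV_I, L1MdA_VII, L1MdA_II and L1MdV_III followed with differences of −0.81, −0.77, −0.66, −0.65, −0.61 and −0.59. The L1Md median was −0.56 and the older median −0.27, against 0.04 over all features. Leaving out 1 library gave between 3 and 14 L1Md families. There were 3 without control 2-cell replicate 2 or without MERVL-KD 2-cell replicate 1, 4 without MERVL-KD 4-cell replicate 1, 4 without control 4-cell replicate 1 (1 higher and 3 lower), 11 without MERVL-KD 2-cell replicate 2 and 14 without MERVL-KD 4-cell replicate 2.

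Between the 2-cell and 8-cell stages, again 8 of 123 families had a lower effect and none a higher one, beside 1.63% and 2.35% of all features, and all 8 were L1Md families (2 higher and 8 lower when scaled by genes alone). L1MdA_V led with a difference of −0.96 (SE 0.20, adjusted p = 0.00641), followed by L1MdF_I with −0.95, L1MdF_III with −0.88, L1MdA_VII with −0.87, L1MdN_I with −0.83, L1MdA_III with −0.76, L1MdTf_III with −0.71 and L1MdV_I with −0.63. The L1Md median was −0.56 and the older median 0.16, against 0.04 over all features. The count was 4 without MERVL-KD 2-cell replicate 1, 5 without control 8-cell replicate 1 and 16 without control 8-cell replicate 2. Both of these comparisons use the same 2-cell libraries, so they are not independent of each other. Between the 4-cell and 8-cell stages no L1 family differed by edgeR's quasi-likelihood test, beside 0.302% of all features higher and 0.338% lower. DESeq2 called 1. An unadjusted p under 0.05 was reached by 27 of 123, a looser rule to which these shares of all features do not apply. The share of all features by that rule is not given, so no excess can be read from this count.

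The course over the stages was also followed within each condition, on a scale common to all 12 libraries. In control embryos more L1 families were higher than lower at the 4-cell stage relative to the 2-cell stage. With a 2-fold change asked, 9 of 123 families were higher and none was lower, beside 20.4% and 23.7% of all features at this transition. Without a fold threshold 46 were higher and 1 was lower, beside 26.6% and 28.1% of all features, and the medians of L1Md and older families were both 0.33. L1MdV_I, of the V subfamily, was the sole young family past 2-fold, from 145 and 131 CPM to 362 and 348 CPM (log2 1.36, SE 0.10, adjusted p = 9.71e-11). The others were old families with few counts, led by L1ME3A, from 1.40 and 1.68 CPM to 4.71 and 6.43 CPM (log2 1.85), and L1MC5a, from 2.84 and 2.04 CPM to 6.92 and 9.31 CPM (log2 1.74).

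From the 4-cell to the 8-cell stage in control embryos, L1MD alone was past 2-fold, lower by 1.01 on the log2 scale, from 9.14 and 10.9 CPM to 3.52 and 6.43 CPM, beside 1.08% of all features lower and 0.467% higher. Its call ended under DESeq2, under DESeq2's size factors and with the control libraries fitted alone, and also without control 4-cell replicate 2 or control 8-cell replicate 1. Without a fold threshold 40 families were lower, 9 of them L1Md and 18 of them Lx, and 1 was higher, beside 3.02% lower and 3.12% higher among all features. The medians were −0.40 for L1Md and −0.45 for older families. The family that rose was L1MdA_VI, from 1243 and 969 CPM at the 4-cell stage to 1735 and 1607 CPM at the 8-cell stage (log2 0.59, SE 0.11, adjusted p = 0.00275), the opposite direction to most of the young set. Without control 4-cell replicate 2 its adjusted p was 0.0626 (log2 0.43).

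In MERVL-KD embryos more young families were lower than higher at the 4-cell stage relative to the 2-cell stage. With a 2-fold change asked, 5 families were higher and 3 lower from the 2-cell to the 4-cell stage, all of them older families with few counts, beside 20.7% and 22.4% of all features (3 higher and 4 lower when scaled by library size). Without a fold threshold 2 L1Md families were higher, L1MdV_I and L1MdA_VI, and 9 were lower, with a median of −0.16 (0.0017 at the highest with 1 library left out), while 18 older families were higher and 8 lower, with a median of 0.17. Among all features 26.9% were higher and 26.8% lower by that rule. L1MdF_I went from 348 and 282 CPM to 198 and 211 CPM (log2 −0.62), where in control embryos it went from 190 and 157 CPM to 263 and 253 CPM (log2 0.57). L1MdA_VI rose from 1012 and 975 CPM to 1516 and 1359 CPM (log2 0.53), a stage before its rise in control embryos. The difference of its effects between the 2-cell and 4-cell stages did not pass (log2 0.51, SE 0.15, adjusted p = 0.067). From the 4-cell to the 8-cell stage no family was past 2-fold in MERVL-KD embryos, beside 0.322% of all features higher and 1.27% lower, and 12 families, 11 of them L1Md, were lower and none was higher without a fold threshold, beside 2.4% and 2.22% of all features.

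**Figure D5:**
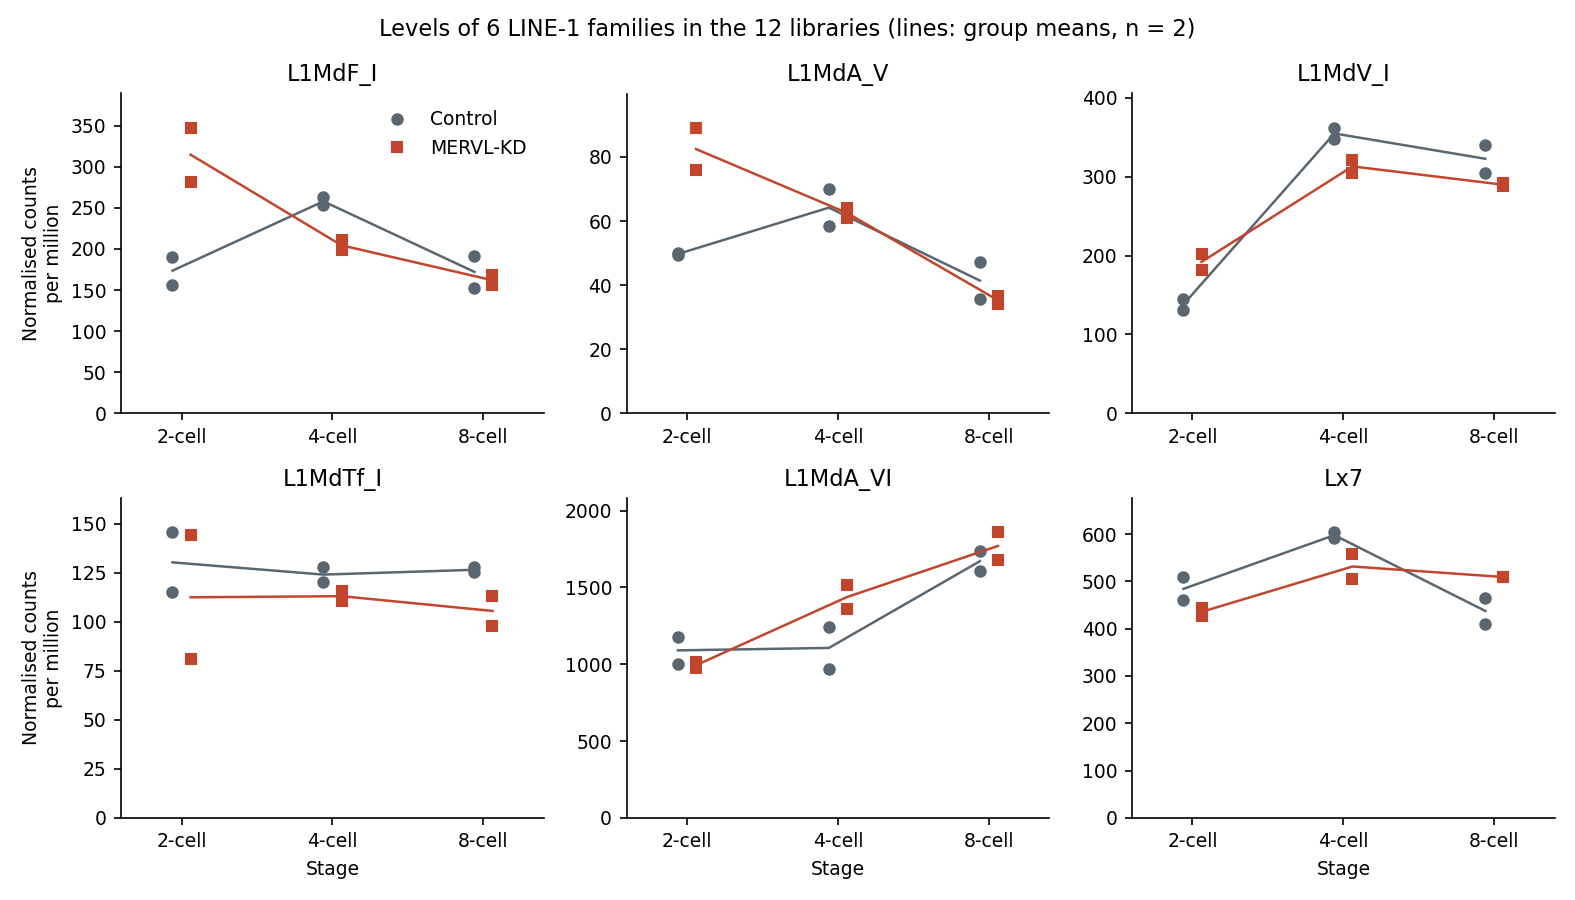
Normalised CPM of 6 L1 families in the 12 libraries by stage, control in grey circles and MERVL-KD in red squares, with lines through the group means (n = 2). All axes start at 0 and the scale is common to all 12 libraries. L1MdF_I and L1MdA_V are highest in the MERVL-KD 2-cell libraries, L1MdV_I climbs after the 2-cell stage in both groups, and L1MdA_VI is highest at the 8-cell stage in both groups.

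Genes that are known to act on L1 were followed beside it. Of 24 genes of chromatin silencing (the TRIM28 and SETDB1 complex, the HUSH complex, histone and DNA methylation), 23 were in the table, and none was past 2-fold at any stage. At the 2-cell stage 1 was higher and 5 were lower, where 6.74% and 7.23% of all features were, with log2 values of −0.46 for Tasor, a HUSH subunit, −0.36 for Setdb1, the H3K9 methyltransferase that works with TRIM28, and −0.25 for Trim28, which did not pass (adjusted p = 0.0844). The one that was higher was Smchd1 (log2 0.27), and the median of the list was −0.10. In 4-cell embryos 2 were higher and 3 lower, where 4.83% and 5.75% of all features were, and in 8-cell embryos, with 3.51% of all features lower, 1 was lower, Trim28 (log2 −0.57, adjusted p = 9.8e-04). Of 19 genes that act on L1 RNA or on retrotransposition, Ythdc1, a nuclear reader of N6-methyladenosine, was lower at the 2-cell stage (log2 −0.52), 1 was higher and 2 were lower in 4-cell embryos, and 1 was lower in 8-cell embryos. Of 7 genes for factors that bind L1 promoters or L1 RNA, L1td1, a gene descended from an L1 open reading frame, was higher at the 2-cell stage, from 51.5 and 50.4 CPM before TMM scaling to 102 and 79.0 CPM (log2 0.54 after it, SE 0.12, adjusted p = 0.00628), and none passed at the later stages. The genes named from these 3 lists were chosen after their values were seen.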

How the data were processed

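Total RNA-seq counts of 12 libraries were used. The deposited values are raw counts, which the authors made by aligning reads with STAR 2.5.3a to GRCm38 (mm10), keeping unique alignments and counting them with featureCounts over GENCODE genes and RepeatMasker families. STAR's version is from the submitters' processing notes. The length column, whose values the authors deposited beside the counts, was used as the average copy length of a family. Libraries held 28167085 to 41482526 counts, and both mates of a pair were mostly counted, so counting error is larger than the totals imply.

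Each stage was filtered with filterByExpr, scaled by TMM and fitted with edgeR 4.0.16 (quasi-likelihood, robust, R 4.3.3) across all genes and repeat families, with limma 3.58.1 loaded. Stage changes and differences of effects came from a fit of all 12 libraries. Calls used a Benjamini-Hochberg adjusted p under 0.05 over all features, and stage changes also a 2-fold change. The procedure was tested on simulated counts. DESeq2 1.42.0, other scalings and filters, a replicate block and leaving out libraries were alternatives. Over all features same-numbered libraries did not deviate together (correlations of −0.016 to 0.020). Over the L1 families alone these correlations ran from −0.49 to 0.37.

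The families named were every L1Md family, the 5 with the most counts, and up to 3 in each direction by adjusted p, or by fold for stage changes. Others are marked as chosen after their values were seen. The members, gene lists and tests were chosen with earlier results of these data known.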

Additional observations from a re-analysis of the deposited data

Results flagged for a closer look

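The effect of MERVL-KD differed between stages in 16 instances over the L1 families, each by a test of the difference itself (an interaction term in edgeR's quasi-likelihood fit of all 12 libraries, adjusted p under 0.05). Between the 2-cell and 4-cell stages the log2 effect was lower for L1MdF_I (−1.19), L1MdF_III (−0.81), L1MdA_V (−0.77), L1MdV_I (−0.66), L1MdA_VII (−0.65), L1MdA_II (−0.61), L1MdV_III (−0.59) and the older family L1Lx_IV (−0.56). Between the 2-cell and 8-cell stages it was lower for L1MdA_V (−0.96), L1MdF_I (−0.95), L1MdF_III (−0.88), L1MdA_VII (−0.87), L1MdN_I (−0.83), L1MdA_III (−0.76), L1MdTf_III (−0.71) and L1MdV_I (−0.63). Both sets of differences share the 2-cell libraries. L1MdF_I and L1MdF_III passed in all 8 fits that left out 1 library, in both comparisons.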

How the results depend on the processing

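With 2 libraries a group, single libraries decided many calls. The depth was high for the L1Md families, but old families near 1 CPM rest on few reads, and mates counted separately make their counts look more precise than they are. Reads that fit several places were dropped before counting, and what that removed from the youngest copies was not tested. None of the 101 differences called for named families changed direction under the alternatives run for it. Causes of the movements given here were not tested.

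At the 2-cell stage the 25 L1 families called became 58 when libraries were scaled by size instead of TMM, and 4 past 2-fold. Scaling by size moved the median of all features to 0.31 there. At the 4-cell stage the 2 calls became 6 with DESeq2, 1 with library size, 7 with at least 1 count, 5 with at least 10 counts in every library, 0 with a non-robust fit, 5 with counts halved, 1 with the replicate block and 0 past 2-fold. At the 8-cell stage the 2 calls became 8 (7 higher and 1 lower) with library size, 5 with at least 1 count, 1 with a non-robust fit and 0 past 2-fold. Over all features the numbers do not pair the libraries, and the block moved no other count of calls by over 1.5 times.

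Stage changes without a fold threshold numbered 47 and 41 in control embryos, beside 37 and 12 after depletion. The single 4-cell to 8-cell call in control embryos became 0 with DESeq2, 0 with DESeq2's size factors, 0 with the control libraries alone and 3 with library size. The 8 differences between 2-cell and 4-cell effects became 15 with DESeq2, 34 with library size and 17 with either count filter, of which 13, 20, 15 (at least 1 count) and 14 (at least 10) were L1Md. The 8 between 2-cell and 8-cell effects became 18 with DESeq2, 18 with library size and 15 with either filter, of which 14, 17, 14 and 15 were L1Md. Library size moved the median of all features to −0.26 for the 4-cell and −0.20 for the 8-cell difference from the 2-cell effect. Between 4-cell and 8-cell effects DESeq2 called 1.

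With library size the L1Md medians were 0.78 and −0.034 in MERVL-KD against control at the 2-cell and 8-cell stages, 0.50 and −0.61 over the control stages, −0.30 and −0.49 over the MERVL-KD stages, and −0.86 and −0.79 for the differences of effects from the 2-cell stage. The older medians were then 0.40 and 0.28, 0.49 and −0.65, 0.030 and −0.24, and −0.57 and −0.077. With at least 10 counts the medians from 2-cell to 4-cell in MERVL-KD embryos were −0.31 (L1Md) and −0.0094 (older), and the older median of the 4-cell difference was −0.37. As a share of repeat counts, L1 averaged 4.43%, 7.05% and 4.76% over the 3 control stages, beside 9.43%, 6.67% and 5.25% after depletion. Repeat counts include MERVL-int itself, and its part in these shares was not tested. MERVL-int averaged 6.45% of all counts in control 2-cell, 1.92% in control 4-cell and 0.15% in MERVL-KD 2-cell embryos. Without L1MdA_VI, a choice made after seeing the data, the mean L1Md shares were 40.7%, 41.7% and 43.1% against 47.5%, 42.3% and 39.2%.

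Leaving out 1 library gave 4 to 16 L1 calls at the 2-cell, 0 to 8 at the 4-cell and 0 to 2 at the 8-cell stage, 6 to 10 and 0 to 1 over the control stages, 5 to 7 from 2-cell to 4-cell in MERVL-KD embryos, and 3 to 19 and 4 to 16 differences of effects. For L1Md alone these were 4 to 14, 3 to 14 and 4 to 16. L1Md medians ranged from 0.30 to 0.53, −0.25 to −0.036 and −0.32 to 0.00089 in MERVL-KD against control, 0.21 to 0.36 and −0.58 to −0.23 over the control stages, −0.28 to 0.0017 and −0.45 to −0.25 over the MERVL-KD stages, and −0.78 to −0.43, −0.77 to −0.47 and −0.18 to 0.15 for the differences. Older medians ranged from −0.038 to 0.069, −0.32 to −0.10 and 0.08 to 0.23, 0.25 to 0.41 and −0.54 to −0.38, −0.015 to 0.25 and −0.20 to 0.014, and −0.45 to −0.13, 0.0047 to 0.26 and 0.25 to 0.49. The L1 share of all counts ranged from 1.02% to 1.14%, 1.38% to 1.52% and 0.947% to 1.10% in control embryos, and from 1.43% to 1.62%, 1.36% to 1.42% and 1.11% to 1.14% after depletion. The L1Md share ranged from 45.3% to 47.0%, 45.8% to 46.6% and 51.2% to 51.6% in control embryos, and from 50.5% to 52.5%, 47.6% to 49.8% and 48.4% to 48.6% after depletion.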
